A study of Drosophila melanogaster with 2 samples.

Results

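Peaks of tagged tonalli protein that lay beside a gene start, rather than on it, were described in Drosophila melanogaster embryos. A promoter-flanking peak was one whose summit, the position of its highest signal, lay more than 100 and up to 500 bp from the nearest start of a protein-coding transcript. By this rule 472 of the 2580 peaks in the conservative list, which was made from both replicates and is called the joint list here, were flanking, 238 of them upstream and 234 downstream of the start. A further 1600 peaks had their summit within 100 bp of a start and are called core peaks, and 508 lay farther away.

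Chromatin immunoprecipitation followed by sequencing (ChIP-seq) with an antibody to GFP was made on whole embryos of the strain tna-GFP, which carries a tna-eGFP transgene. The embryos were 0 to 24 h old, so that all embryonic stages and tissues were mixed. Chromatin was sheared to fragments of 200 to 800 bp, so that most of the distances described here were no longer than the shortest fragments. The 2 biological replicates came from the same line and formed 1 group, and a control library was not analysed here. Differences between classes of peaks are therefore given as values in both replicates, without a test, because peaks of 1 experiment are not replicates of a condition.

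The gene tna (tonalli) encodes an SP-RING protein of the family of SUMO ligases, and was found through its genetic interaction with the Brahma chromatin-remodelling complex. Fly promoters of broadly active genes often carry the DNA replication-related element (DRE), the site of the factor Dref, which overlaps the core site of the insulator protein BEAF-32. Genes of this kind also often stand head to head, sharing a short stretch of DNA between 2 divergent starts.

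The DRE was searched as TATCGATA, on both strands, within 100 bp of a summit, and it contains the shorter BEAF-32 site CGATA. Sequence is shown from the arms X, 2L, 3L and 3R only. It is given upstream of the start for the 4 strongest upstream peaks on these arms with a DRE near the summit, because the DRE was more frequent at upstream than at downstream summits. Each is written 5′ to 3′ on the strand of the gene, ends at the last base before the start, and has the DRE in capitals. The Nrg sequence is chrX:8517181-8517372 (dm6, plus strand), the Zdhhc8 sequence chrX:9356228-9356366 (minus), the Jwa sequence chr2L:18705704-18705913 (minus) and the DnaJ-1 sequence chr3L:5752190-5752326 (minus).
Nrg: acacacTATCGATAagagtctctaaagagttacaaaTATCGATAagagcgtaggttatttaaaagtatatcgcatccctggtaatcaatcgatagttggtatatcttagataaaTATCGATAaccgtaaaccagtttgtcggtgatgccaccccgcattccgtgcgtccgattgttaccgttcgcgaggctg
Zdhhc8: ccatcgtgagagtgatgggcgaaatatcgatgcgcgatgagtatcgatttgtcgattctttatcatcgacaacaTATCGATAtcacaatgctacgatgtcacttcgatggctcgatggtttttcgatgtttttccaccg
Jwa: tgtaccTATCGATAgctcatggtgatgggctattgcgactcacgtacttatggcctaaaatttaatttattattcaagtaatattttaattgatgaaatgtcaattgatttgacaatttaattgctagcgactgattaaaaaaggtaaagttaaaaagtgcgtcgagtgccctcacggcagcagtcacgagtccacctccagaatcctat
DnaJ-1: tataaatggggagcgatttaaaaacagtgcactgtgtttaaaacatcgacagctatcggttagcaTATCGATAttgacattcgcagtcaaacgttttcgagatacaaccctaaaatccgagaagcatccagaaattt

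The Nrg sequence held 3 copies of the DRE, the nearest of them centred 38.5 bp from the summit. In Zdhhc8 and DnaJ-1 the single copy was centred 47.5 and 38.5 bp from the summit, on its side towards the start. In these 3 genes the same copy lay within 100 bp of the start as well, so it was counted at both places. In Jwa the copy was centred 200.5 bp upstream of the start and 94.5 bp from the summit.

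Downstream peaks are represented by short windows of 30 bases around the match. The first is from CG5861, the strongest of the 3 downstream peaks with a DRE near the summit. Its summit lies in the 5′ UTR, and the window is chr2L:16307097-16307126 (minus). The CG5861 summits of replicates 1 and 2 lay 96 and 92 bp downstream, within 100 bp of the start. Another copy of the DRE lay within 100 bp of that start. The other windows are from the 3 strongest downstream peaks on the arms X, 2L, 3L and 3R whose DRE lay at the start and not at the summit. They are chr3L:18898850-18898879 (RpL26, plus), chr3L:20356759-20356788 (kin17, plus) and chr2L:9893418-9893447 (mtDNA-helicase, minus).
CG5861: tgttaagcacaTATCGATAacccacggcaa
RpL26: gatgacagtgtTATCGATActagctgaatt
kin17: ccagcagtaacTATCGATAaaagtgttcac
mtDNA-helicase: ctcactttcgaTATCGATAacatggaaaat

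For RpL26 the match was centred 10.5 bp upstream of the start, and the summit lay 112 bp downstream of it. For kin17 the match lay 33.5 bp upstream of the start and 217.5 bp from the summit. For mtDNA-helicase it was centred 13.5 bp downstream of the start.

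Flanking summits crowded towards the 100 bp limit on the upstream side. Upstream, 97 summits lay within 150 bp of the start, which is 1.94 per bp of this range, and the density was 0.86 per bp between 150 and 200 bp and 0.22 per bp between 400 and 500 bp. Downstream, the density was 1.42 per bp up to 150 bp, 1.56 between 150 and 200 bp and 0.14 between 400 and 500 bp. Core summits just inside the limit were denser, with 7.7 per bp at 51 to 100 bp upstream and 2.34 per bp at 51 to 100 bp downstream. The counts thus fell across the limit on both sides. Upstream they went on falling, whereas downstream they stayed near level between 100 and 200 bp. Of the 78 downstream peaks between 150 and 200 bp, 36 had a core peak at the same start. The median distance was 167.5 bp upstream and 174 bp downstream.

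Signals next to the limit overlapped between its 2 sides. Just inside the flanking class, the upstream peaks of CG10555, Hsepi and Hsp60A, none more than 102 bp from the start, had signals of 191, 407 and 260. Just outside it, those of SmD3 (100 bp), mRpL39 (100 bp) and CG4281 (99 bp) had 426, 220 and 385. Downstream, Qsox1, Rab32 and CG14856, again within 102 bp, had signals of 161, 129 and 98.7, and the core peaks of Cmpk (100 bp), VhaSFD (97 bp) and CHES-1-like (97 bp) had 110, 114 and 103.

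The replicates differed in which side they favoured. The replicate 1 list held 429 flanking peaks, 283 upstream and 146 downstream, an upstream share of 66.0%. The replicate 2 list held 495, with 224 upstream and 271 downstream, a share of 45.3%. The joint list had 50.4% (95% exact interval 45.8 to 55.0). No side was therefore favoured in both replicates. Intervals here and below cover counting error only.

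**Figure D1:**
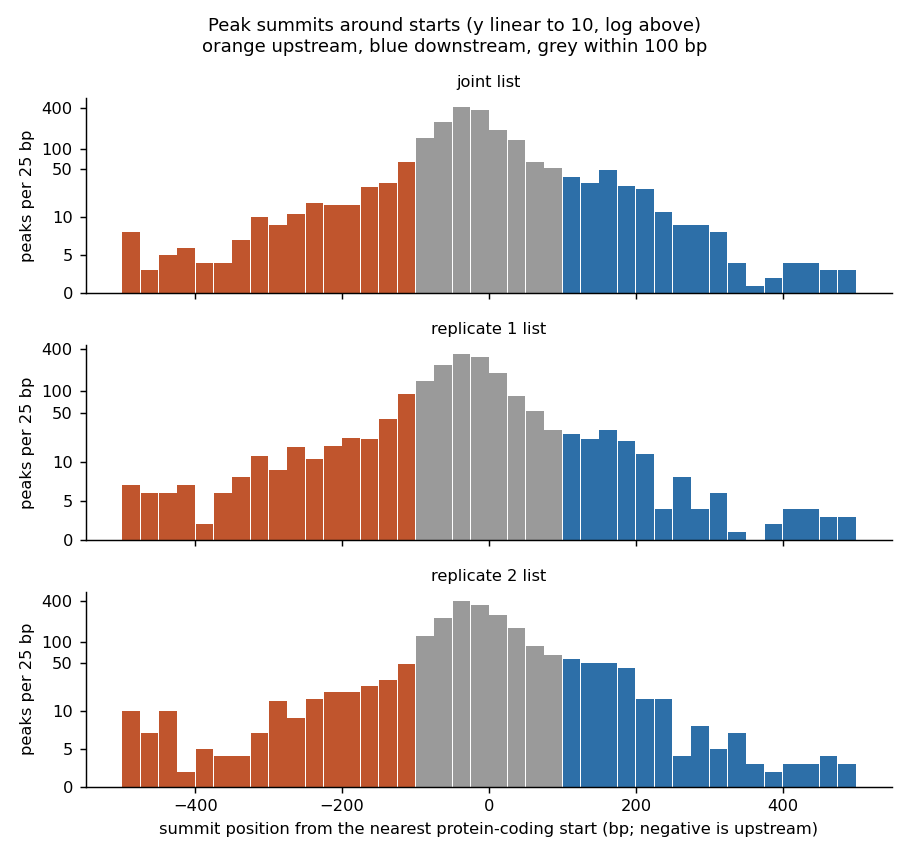
Number of peak summits per 25 bp by their position relative to the nearest protein-coding start (x, bp), in the joint list and in that of each replicate; the y axis is linear to 10 and logarithmic above. Upstream bars (orange) outnumber downstream bars (blue) in replicate 1, with 283 against 146 peaks, and the order is turned in replicate 2, with 224 against 271.

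Upstream flanking peaks were nearly as strong as core peaks, and downstream ones were weaker. The signal is the peak caller's own value, which the deposited lists give without a stated scale, so it was compared within a list only. In the joint list the median was 170 for upstream peaks, 105 for downstream peaks and 194 for core peaks. The same peaks in replicate 1 had medians of 100.8 upstream, 61.6 downstream and 101.2 at the core. In replicate 2 the medians were 88.6 upstream, 73.4 downstream and 102 at the core. The ratio of the upstream to the downstream median was 1.62 in the joint list, with 1.64 and 1.21 in replicates 1 and 2, so the direction held in both replicates. The ratio of the upstream to the core median was 0.876, 0.996 and 0.870 in those lists, which leaves replicate 1 with almost no difference.

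High signals were found mainly on the upstream side. A signal of 300 or more was reached by 41 of 238 upstream peaks (17.2%, 12.7 to 22.6), by 4 of 234 downstream peaks (1.71%, 0.468 to 4.32) and by 398 of 1600 core peaks (24.9%, 22.8 to 27.1). Flanking signals ranged from 2.08 to 1104, and the highest downstream value was 386.

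**Figure D2:**
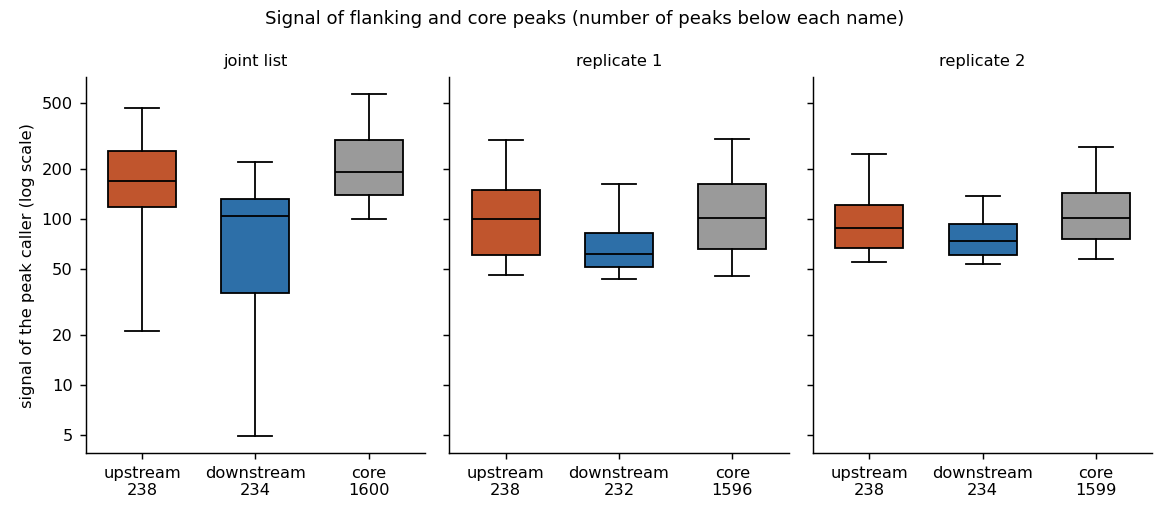
Signal per peak (y, logarithmic, the peak caller's value) for upstream, downstream and core peaks in the joint list and for the matching peak of each replicate; boxes span the quartiles, the line is the median and whiskers reach the 5th and 95th percentiles. Downstream medians are the lowest in each panel, at 105, 61.6 and 73.4.

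The highest upstream peak was at chr2L:7048949-7049307, 125 bp upstream of a start of milt, which encodes the Milton adaptor for transport of mitochondria. Its signal was 1104 in the joint list, with 572 and 547 in replicates 1 and 2, and the summits of both replicates lay 125 and 123 bp upstream. A second start of milt carried the strongest downstream peak, at chr2L:7037857-7038083 in the 5′ UTR, with signals of 386, 193 and 220 and summits 139, 143 and 137 bp downstream. The milt gene thus held the highest peak of each side, at different starts.

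Next came kug, an atypical cadherin, with signals of 864 in the joint list, with 431 and 442 in replicates 1 and 2, whose summits lay 212 and 161 bp upstream. The summit of kug lay in an intron, as did that of milt. CG8547 had 795, 392 and 385, 206 bp upstream. The peak 115 bp upstream of emb, which encodes the nuclear export receptor Crm1, had 712, 390 and 290. It stood between emb and the divergent start of fy, and those 2 starts lay 293 bp apart.

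The upstream list went on with shps at 678 in the joint list, with 334 and 354 in replicates 1 and 2. Nrg, the cell adhesion protein Neuroglian, had 673, 359 and 340, and bun, a transcription factor of the TSC22 family, had 654, 377 and 304. For these 3 genes the replicate summits stayed between 114 and 162 bp upstream. Zdhhc8, a palmitoyltransferase, had 603, 342 and 261, and its replicate 2 summit lay 79 bp from the start, inside the core limit. Hasp, a synaptic scaffold protein, had 515, 236 and 276 with its summits 489, 489 and 472 bp upstream, far from the core. The transcription factor Sox14 had 531 in the joint list, with 380 and 148 in replicates 1 and 2.

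Among downstream peaks, the kinase gene Sik3 followed milt with 372 in the joint list, with 221 and 156 in replicates 1 and 2, 191 bp into the gene. The tyrosine phosphatase gene Ptpmeg2 had 339, 166 and 192 at 194 bp. The gene dlg1, the septate junction scaffold Discs large, had 318, 173 and 149 at 143 bp. In these 3 the replicate summits stayed downstream, between 107 and 220 bp. RpL26, a protein of the large ribosomal subunit, had 289, 190 and 91.3, with its replicate 1 summit 83 bp downstream, inside the core limit. Roc2, a RING subunit of cullin ligases, had 286, 197 and 113 at 404 bp, where a separate core peak of 134 stood at its start. The last 4 of the 10 were CNBP, CG31248, CG5861 and PIG-L, with joint signals of 255, 244, 240 and 235.

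Matching replicate summits lay farther from downstream than from upstream joint summits. The matching replicate summit lay a median of 21 bp (replicate 1) and 26 bp (replicate 2) from an upstream summit, against 62.5 and 52 bp for downstream summits and 14 and 13 bp for core summits. In replicate 1 the matching summit fell within 100 bp of the same start for 36 of 238 upstream peaks (15.1%) and for 98 of 232 downstream peaks (42.2%). In replicate 2 this was the case for 54 of 238 (22.7%) and 90 of 234 (38.5%). For many downstream peaks the matching replicate peak thus had its summit in the core range. That peak can be the match of a neighbour too. In both replicates, 73 downstream and 26 upstream peaks shared their matching peak with a stronger joint peak. Of these, 65 and 17 had a core peak at their start. Whether a summit moved or the flanking peak was absent from a replicate's list was not tested. Both replicate summits lay in the flanking range on the same side for 165 of 238 upstream peaks (69.3%, 63.0 to 75.1), for 100 of 232 downstream peaks (43.1%, 36.6 to 49.7) and for 28 of 1595 core peaks (1.76%).

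**Figure D3:**
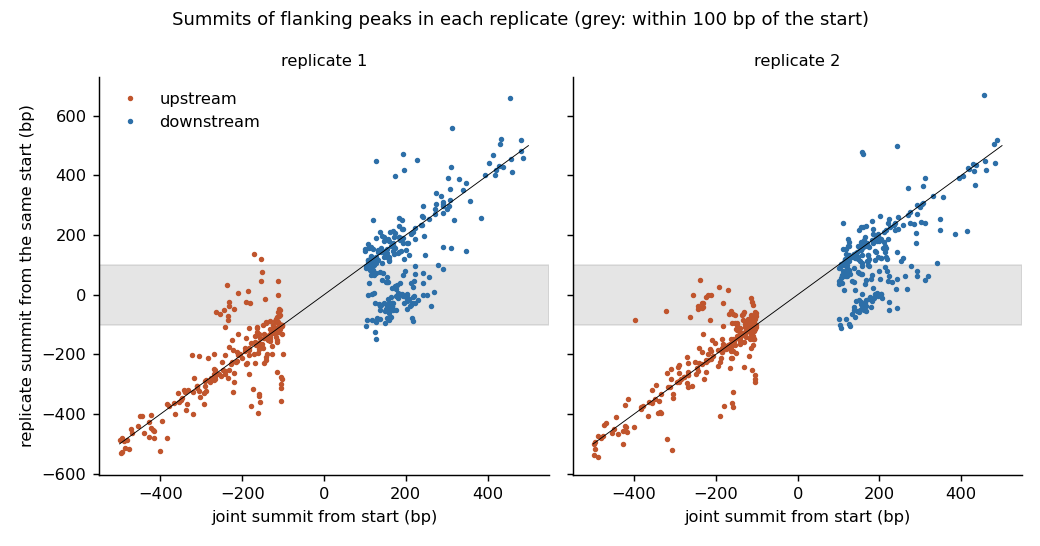
Summit position of each flanking peak in the joint list (x, bp from the start) against the summit of the matching peak in replicate 1 and replicate 2 (y, bp from the same start); the line marks equal positions and the grey band the core limit of 100 bp. Upstream points (orange) follow the line, whereas 98 and 90 downstream points (blue) fall in the band in replicates 1 and 2.

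Other measures also set downstream peaks apart from upstream ones. A peak matching the joint one was in both thresholded replicate lists for 137 upstream peaks (57.6%, 51.0 to 63.9), 72 downstream peaks (30.8%, 24.9 to 37.1) and 1063 core peaks (66.4%, 64.1 to 68.8). The irreproducible discovery rate (IDR), the expected share of irreproducible peaks at a given rank, was at most 0.001 for 103 upstream peaks (43.3%), 36 downstream peaks (15.4%) and 825 core peaks (51.6%). The most common peak width in the list was 410 bp, held by 1689 of the 2580 peaks. This width or more was found in 165 upstream peaks (69.3%), 224 downstream peaks (95.7%) and 898 core peaks (56.1%), so that only 10 downstream peaks were narrower.

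A core peak stood at the same start as 120 of the 472 flanking peaks (25.4%, 21.6 to 29.6), more often downstream. The count was 35 of 238 upstream (14.7%, 10.5 to 19.9) and 85 of 234 downstream (36.3%, 30.2 to 42.8). Of these pairs, the core peak was the stronger in 19 of 35 upstream and 72 of 85 downstream cases. Upstream flanking members had a median of 75.8 against 115 for their core partners, and downstream members 26.2 against 143. The distance between the 2 summits of a pair had a median of 203 bp upstream and 205 bp downstream. A peak of the most common width reaches 205 bp to each side of its middle, and the distance was within 10 bp of that value in 29 of 35 upstream and 57 of 85 downstream pairs. The smallest distance between any neighbouring summits in the list was 199 bp, and the intervals of 34 of 35 upstream and 84 of 85 downstream pairs overlapped. Whether a flanking summit in such a pair stands for separate binding or for the shoulder of the core peak was not tested.

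Some of these pairs rested on the same peak of each replicate. In all, 26 upstream peaks (10.9%), 73 downstream peaks (31.2%) and 35 core peaks (2.19%) had the same matching peak as a stronger neighbour in both replicates. The 73 downstream ones had a median signal of 15.3 in the joint list, although the replicate peaks they matched had medians of 75.8 and 82.5. The remaining 161 downstream peaks had 125 in the joint list, with 56.8 and 71.4 in replicates 1 and 2. The remaining 212 upstream peaks had 179, 99.9 and 87.6, above the downstream values in each list. Peaks that were low within the joint list could thus match peaks that were high within the replicate lists, as at Cdk2, a cell cycle kinase, with 6.77 in the joint list, with 164 and 143 in replicates 1 and 2. Its replicate summits lay 37 and 42 bp upstream of the start, whereas the joint summit lay 137 bp downstream.

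Of the 5 strongest flanking peaks with a core partner, 4 were upstream, and the fifth was that of Roc2. At Ptpmeg, a tyrosine phosphatase gene, the peak 215 bp upstream had 467 in the joint list, with 321 and 151.3 in replicates 1 and 2, and the core peak 9 bp upstream had 213, 120 and 151.3. In replicate 2 both matched the same peak. At eag, a potassium channel gene, the peak 156 bp upstream had 314, 130 and 176 while its core partner had 6.94 and matched the same peaks of both replicates. PAN3, a subunit of a poly(A) nuclease, had 284, 149 and 129 at 127 bp upstream, and CG9205 had 233, 143 and 103 at 131 bp.

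The DRE was found near 49 of 238 upstream summits (20.6%, 15.6 to 26.3), 3 of 234 downstream summits (1.28%, 0.265 to 3.70) and 522 of 1600 core summits (32.6%, 30.3 to 35.0). Windows placed at the same median offset around all 19276 protein-coding start positions held it in 2.95%, 0.472% and 6.67%. In the replicate 1 list the shares were 61 of 283 upstream (21.6%), 0 of 146 downstream, which allows up to 2.49%, and 36.7% at the core. In the replicate 2 list they were 37 of 224 upstream (16.5%), 2 of 271 downstream (0.738%) and 29.0% at the core. The order of the 3 classes was thus the same in both replicates, and in the joint list the upstream and downstream intervals did not overlap.

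Downstream peaks that had a DRE mostly had it at the start instead, and 178 of 234 (76.1%) had none at either place. Within 100 bp of the nearest start the DRE was present for 39 upstream peaks (16.4%, 11.9 to 21.7), 55 downstream peaks (23.5%, 18.2 to 29.5) and 514 core peaks (32.1%, 29.8 to 34.5). A core peak stood at that start for 29 of the 55 downstream peaks. Windows centred 25 bp upstream of all protein-coding starts, the median core offset, held the DRE in 6.67%. The start shares upstream and downstream were 21.6% and 22.6% in the replicate 1 list, almost without a difference. In the replicate 2 list they were 8.48% and 19.2%. Beyond 200 bp, where the windows around summit and start no longer overlap, 15 of 98 upstream peaks (15.3%) had it at the summit and 12 (12.2%) at the start. Of 85 downstream peaks at that distance, 1 (1.18%) had it at the summit and 17 (interval 12.1 to 30.1%) at the start. In all, 53 downstream peaks had a DRE at the start only, and 1 at the summit only. Upstream, 26 had it at the summit only, 16 at the start only and 23 at both, and 173 had none at either.

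The position of the matches depended on the window they were taken from. A match counted near the summit lies within 100 bp of it, and likewise for the start. Medians taken from different windows therefore do not compare the classes. For upstream peaks, the DRE near the summit was centred a median of 42.5 bp from it and at a median position of -173.5 bp from the start. For core peaks the median distance from the summit was 23.5 bp. For downstream peaks the DRE near the start had a median position of -19.5 bp from the start and of -200.5 bp from the summit. With the same window at the start, the median position was -29.5 bp for upstream peaks and -24.5 bp for core peaks. By this window the classes were thus alike.

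**Figure D4:**
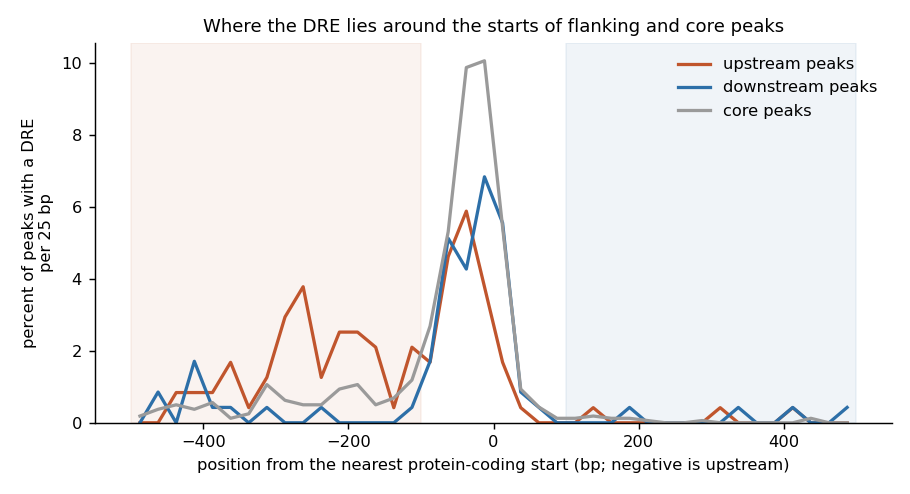
Percent of peaks with a DRE per 25 bp (y) by position from the nearest protein-coding start (x, bp, on the strand of the gene), for upstream, downstream and core peaks; the shaded ranges are the flanking ones on either side. All 3 curves have a maximum just upstream of the start, and the upstream curve has a broad second part between 100 and 400 bp upstream. The matches near upstream summits had a median position of -173.5 bp.

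The DRE share of upstream peaks was set against their signal. Above the median flanking signal of 129, 40 of 166 upstream peaks held it (24.1%, 17.8 to 31.3), against 9 of 72 at or below that signal (interval 5.88 to 22.4%), and the intervals overlapped. Downstream the counts were 1 of 70 and 2 of 164. Upstream peaks holding it had medians of 184 in the joint list, with 105 and 88.3 in replicates 1 and 2. Those lacking it had 165, 96.6 and 89.0. The medians thus differed little, and in replicate 2 not in the same direction.

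The DRE share at summits held in the peaks that both replicates placed in the same class. It was 34 of 165 upstream (20.6%, 14.7 to 27.6), 2 of 100 downstream (2.00%, 0.243 to 7.04) and 481 of 1383 at the core (34.8%, 32.3 to 37.4). At the start the share was 13.3% upstream (8.55 to 19.5), 13.0% downstream (7.11 to 21.2) and 34.3% at the core. The higher downstream share at the start, 23.5% of all downstream peaks, was thus not seen in these peaks. In these sets the median signal was 175 upstream, 129 downstream and 205 at the core. A core peak stood at the same start in 6 of the 165 upstream and 8 of the 100 downstream peaks.

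The shorter BEAF-32 site CGATA was near 58.0% of upstream (51.4 to 64.3), 25.2% of downstream (19.8 to 31.3) and 83.6% of core summits (81.7 to 85.3). Outside any DRE it was near 51.3%, 24.4% and 77.8% of them. Windows at all starts held it in 29.3% at the upstream offset, 23.8% at the downstream offset and 37.4% at the core offset. Downstream summits as a class were thus close to the share at all starts, and upstream summits lay above it. Above the median flanking signal, 27 of 70 downstream summits had the site (38.6%, 27.2 to 51.0). At or below that signal, 32 of 164 had it (19.5%, 13.7 to 26.4).

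Motif 1, the site of the promoter factor M1BP, was searched as GGTCACAC and was rare beside the start. It was near 5 upstream summits (2.10%), 2 downstream summits (0.855%) and 135 core summits (8.44%), and windows at all starts held it in 1.91%, 0.706% and 5.87%. The strongest matches of each side on those 4 arms are shown because so few flanking peaks had one. Upstream they are bun at chr2L:12546612-12546803 (minus) and CG42271 at chrX:14234067-14234286 (minus). Downstream they are CG5377 at chr3R:22467751-22467780 (minus, summit in a coding exon) and Cdc37 at chr3L:1795582-1795611 (plus, summit in the 5′ UTR). Motif 1 or its reverse complement is in capitals.
bun: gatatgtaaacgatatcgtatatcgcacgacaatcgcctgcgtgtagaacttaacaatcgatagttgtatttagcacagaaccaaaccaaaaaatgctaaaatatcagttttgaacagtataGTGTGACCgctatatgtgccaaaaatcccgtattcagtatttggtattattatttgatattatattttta
CG42271: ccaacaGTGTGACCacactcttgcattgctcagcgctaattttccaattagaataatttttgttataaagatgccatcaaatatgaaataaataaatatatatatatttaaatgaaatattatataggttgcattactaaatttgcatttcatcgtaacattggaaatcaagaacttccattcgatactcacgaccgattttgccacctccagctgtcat
CG5377: aactgctgccgGGTCACACcatcatcgcct
Cdc37: aatagccctgcGGTCACACtaatttccaga

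In bun the match was centred 95.5 bp from the summit, near the edge of the window searched, and in CG42271, CG5377 and Cdc37 at 63.5, 22.5 and 24.5 bp. CG42271 had signals of 295 in the joint list, with 209 and 89.5 in replicates 1 and 2. The CG5377 peak had 101.2, 65.9 and 61.4. Cdc37, a kinase cochaperone gene, had 21.1, 114 and 88.1, and its replicate summits lay 5 and 54 bp from the start, where a core peak stood.

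Motif 7, another element of fly housekeeping promoters, searched as CATCNCTA, was near 5.46% of upstream (2.94 to 9.16), 3.42% of downstream (1.49 to 6.63) and 17.0% of core summits (15.2 to 18.9). The share at all starts was 2.30%, 1.44% and 4.57% at those offsets. The GAGA repeat GAGAGAG, the site of GAGA factor, was near 8.82% of upstream summits (5.54 to 13.2), 4.27% of downstream summits (2.07 to 7.72) and 3.19% of core summits (2.38 to 4.17). All starts had 5.98%, 2.38% and 5.38%. Upstream summits of the replicate 1 list had it in 5.30% of cases and those of replicate 2 in 18.8%, so this motif depended on the replicate.

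The TATA box, searched as TATAAA, was near 29.0% of upstream summits, 10.3% of downstream summits and 21.2% of core summits, against 32.0%, 15.5% and 28.4% at all starts. The upstream interval, 23.3 to 35.2%, held the share at all starts, whereas the downstream interval, 6.68 to 14.9%, and the core interval, 19.2 to 23.3%, lay below it. The Tramtrack site AGGAT was near 12.6%, 24.4% and 10.1% of them, against 17.4%, 30.5% and 15.1% at all starts. The sequence within 100 bp of the summit had a median GC content of 38.8% upstream, 49.3% downstream and 40.8% at the core. The part of base composition in the motif shares was not tested.

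The other motifs lay near the share at all starts in both flanking classes. The E-box CAGCTG was near 9.24% of upstream, 11.1% of downstream and 17.2% of core summits, against 9.44%, 10.2% and 13.9% at all starts. The E-box CACGTG was near 2.94%, 3.85% and 3.75% of them, against 2.28%, 2.93% and 2.83%. The Pho site GCCAT was near 34.9% of upstream summits (28.8 to 41.3), 32.1% of downstream and 31.4% of core summits, against 28.7%, 34.8% and 29.9%. For the initiator TCAGT the shares were 26.9%, 24.8% and 34.1%, against 29.5%, 29.7% and 43.2%. The GATA site GATAAG was near 13.4%, 8.55% and 17.6% of summits, against 12.7%, 8.18% and 13.1%. The repeat CACACACA was near 6.30%, 4.27% and 2.88%, against 3.90%, 5.91% and 4.21%. The site of the pioneer factor Zelda, CAGGTAG, was near 0 upstream summits, which allows up to 1.54%, 1 downstream summit and 8 core summits, and all starts had 1.20%, 1.31% and 1.08%. Of these 7 motifs, the interval of a flanking class left out the share at all starts for Pho upstream, by a narrow margin, and for no other. A match is a run of letters and not a shown binding site.

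**Figure D5:**
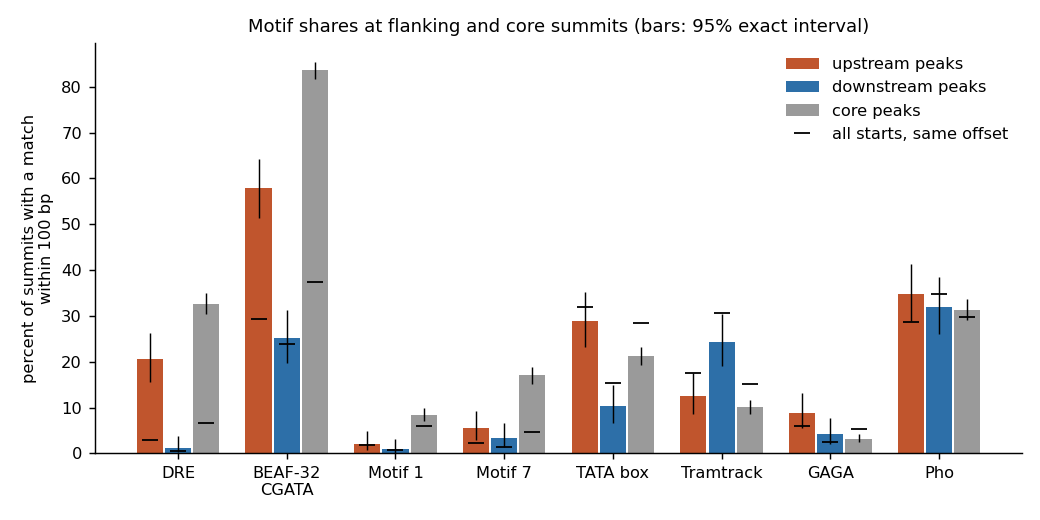
Percent of upstream, downstream and core summits with a match to each of 8 motifs within 100 bp (y; bars with 95% exact intervals), with black dashes for the share at all protein-coding starts at the same median offset. The DRE and CGATA bars stand well above the dashes upstream and at the core, whereas the downstream DRE and CGATA bars, at 1.28% and 25.2%, have dashes at 0.472% and 23.8%.

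The share between divergent genes was lower for upstream than for core peaks in each list, which follows in part from the 100 bp limit. The share over all protein-coding starts was not computed. A summit between 2 protein-coding starts that faced away from each other, at most 1000 bp apart, was found for 75 of 238 upstream peaks (31.5%, 25.7 to 37.8), 4 of 234 downstream peaks (1.71%) and 616 of 1600 core peaks (38.5%, 36.1 to 40.9). A summit downstream of its nearest start can count only where a further start on that strand lies beyond the summit. The low downstream share thus follows largely from the definition. Upstream shares were 39.2% by the list of replicate 1 and 17.9% by that of replicate 2, against core shares of 44.4% and 31.2%. The upstream and core intervals overlapped in the joint list and in that of replicate 1, and not in that of replicate 2. The distance between the starts had a median of 441 bp (219 to 977) at flanking peaks and 301.5 bp at core peaks. A summit between closer starts cannot be over 100 bp from both, and 0 flanking and 185 core peaks stood between them, so the shares were split by distance. Of the flanking and core peaks together, the flanking share was 14.7% for starts 202 to 400 bp apart, 12.7% between 400 and 600 bp and 19.8% between 600 and 1000 bp.

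The divergent upstream peaks had a median signal of 184 in the joint list, with 118 and 85.3 in replicates 1 and 2. The other 163 upstream peaks had 164, 88.9 and 89.0, so the replicates did not share a direction. The DRE was near 20 of the 75 divergent (26.7%, 17.1 to 38.1) and 29 of the 163 other upstream summits (17.8%, 12.3 to 24.5), with overlapping intervals. The strongest after emb and Zdhhc8 were CG14441 with 471 in the joint list, with 275 and 182 in replicates 1 and 2, Ptpmeg as given above, and DnaJ-1. DnaJ-1, an Hsp40 cochaperone of the heat shock response, had 427, 279 and 129 at 107 bp upstream, 784 bp from the divergent start of Usp47.

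Upstream summits lay between genes in 159 of 238 cases (66.8%), in introns in 58 (24.4%) and in 5′ UTRs, coding exons or 3′ UTRs in 7, 6 and 8. Downstream summits lay in the 5′ UTR in 98 of 234 cases (41.9%, 35.5 to 48.5), in coding exons in 86 (36.8%, 30.6 to 43.3) and in introns in 50 (21.4%). Core summits lay in coding exons in 23 of 1600 cases (1.44%). The start concerned was the outermost of its gene for 77.3% of upstream, 76.1% of downstream and 84.4% of core peaks.

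A start of a noncoding gene was within 100 bp of 15 upstream summits (6.30%, 3.57 to 10.2), 3 downstream summits (1.28%) and 20 core summits (1.25%). It was more frequent among the 508 peaks farther away, at 115 summits (22.6%, 19.1 to 26.5). Of the upstream ones, 12 were tRNA genes, 2 were ncRNA genes and 1 was a snoRNA gene, and of the downstream ones 2 were tRNA genes and 1 a snoRNA gene. No core summit was that close to a tRNA start. Beyond 300 bp upstream, 10 of 47 summits (21.3%) were near a noncoding start, close to the share of the peaks farther away. The share for windows at the same offsets around all protein-coding starts was not computed. The 14 flanking peaks at tRNA starts had signals from 130 to 383.

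The strongest of them was named by CG13380, 481 bp upstream, and lay at tRNA:Pro-CGG-2-3 with 383 in the joint list, with 167 and 234 in replicates 1 and 2. The peak named by tud, a germ plasm gene, 427 bp upstream, lay at tRNA:Gly-GCC-1-13 with 253, 119 and 158. The downstream peak of CG31248, 429 bp into the gene, lay at tRNA:Gly-TCC-1-1 with 244, 96.7 and 139. For peaks of this kind the distance to a protein-coding start describes a neighbour.

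The starts nearest to flanking peaks belonged to 456 protein-coding genes, 3.26% of the 13968 on the arms used. Upstream peaks accounted for 235 genes (1.68%), downstream peaks for 229 (1.64%) and core peaks for 1576 (11.3%), which are the shares that counts in gene lists are read against. A peak on each side was found for 8 genes. A core peak, at the same or another start, was found for 131 of the 456 flanked genes (28.7%, 24.6 to 33.1), among them 48 of 235 with an upstream and 85 of 229 with a downstream peak. The other 325 genes had flanking peaks without a core peak. Gene lists were compared by counts, without a test.

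Cytosolic ribosomal protein genes had flanking peaks at 11 of 86 (12.8%, 6.56 to 21.7), 5 upstream and 6 downstream, and core peaks at 22 (25.6%). The strongest was RpS10b, 212 bp upstream with a DRE at the summit, with 331 in the joint list, with 228 and 114 in replicates 1 and 2. RpS5a had 161, 93.3 and 67.8 at 122 bp upstream. Mitochondrial ribosomal protein genes had 2 of 73 flanked and 10 at the core, and proteasome subunit genes 1 of 48 and 11. Their strongest flanking peaks, of mRpS31 (134) and Prosalpha6 (36.7), were in neither thresholded replicate list.

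Genes of the response to ecdysone, the moulting steroid, had flanking peaks at 6 of 20 (30.0%, 11.9 to 54.3), 4 upstream and 2 downstream, and a core peak at 1. The nuclear receptor gene ftz-f1 had 299 in the joint list, with 139 and 157 in replicates 1 and 2. It lay 234 bp upstream with a DRE at the summit. The nuclear receptor gene svp had 264, 109 and 121 at 129 bp upstream, in an intron. The gene usp, which encodes the partner of the ecdysone receptor, had 200, 113 and 72.4 at 121 bp upstream, and its replicate 1 summit lay 88 bp from the start. The list is small and its interval wide.

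Polycomb group genes had 3 of 20 flanked, all downstream, and 8 at the core. Su(z)12, a subunit of the complex that methylates histone H3, had 197 in the joint list, with 127 and 72.3 in replicates 1 and 2, 128 bp downstream in the 5′ UTR. The gene ph-p, a subunit of PRC1, had 180, 104 and 74.7 at 481 bp. The third, Caf1-55, a histone-binding protein, had 2.77, 69.8 and 71.9, with a core peak at its start that matched the same replicate peaks. Trithorax group and Brahma complex genes had 1 of 27 flanked and 6 at the core. The flanked one was skd, a Mediator subunit, with 101.01, 48.4 and 68.8, in neither thresholded replicate list. SUMO pathway genes had 0 of 12 flanked and 2 at the core.

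Among promoter factors, 2 of 10 genes were flanked. Dref itself had a peak 182 bp downstream in its 5′ UTR, with no DRE at the summit or the start. Its signal was 217 in the joint list, with 154 and 90.7 in replicates 1 and 2. MESR4 had 200, 140 and 65.7 at 111 bp upstream. Of 16 insulator genes, pita was flanked, with 194, 98.5 and 103 at 132 bp downstream, and 6 had a core peak.

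Among developmental regulators, segmentation genes had 3 of 23 flanked (13.0%, 2.78 to 33.6) and 4 at the core, against 3.26% flanked among all protein-coding genes. The pair-rule gene odd had 187 in the joint list, with 50.1 and 138 in replicates 1 and 2 at 164 bp downstream. Another pair-rule gene, opa, had 153, 46.8 and 115 at 289 bp upstream. The homeobox gene cad had 109, 46.3 and 62.3 at 141 bp upstream. Of 8 Hox genes, abd-A was flanked (12.5%, 0.316 to 52.7), with 269, 114 and 148, 183 bp upstream, and none had a core peak.

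Signalling lists gave 1 of 19 Notch pathway genes flanked and 6 at the core, and 2 of 17 Dpp pathway genes and 4. The receptor gene N had 110 in the joint list, with 52.1 and 104 in replicates 1 and 2, with replicate summits 47 bp downstream and 96 bp upstream of the start. The receptor gene tkv had 100.5, 40.1 and 98.9. The zinc-finger gene shn had 15.6, 52.5 and 82.5, with both replicate summits within 100 bp. The flanking position was thus held by both replicates for none of these 3 genes.

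Of the genes of the cell, heat shock genes had 2 of 26 flanked and 2 at the core. Besides DnaJ-1 this was Hsp60A, the mitochondrial chaperonin, with 260 in the joint list, and 151.3 and 104 in replicates 1 and 2, at 102 bp upstream and Motif 1 at the summit. Spliceosome genes had 4 of 34 flanked and 10 at the core. Sf3b1, a subunit of the U2 particle, had 263, 175 and 89.2 at 109 bp upstream, between divergent starts 219 bp apart. SmD3, a core Sm protein, had 31.3, 200.9 and 231 at 104 bp downstream, where its replicate summits lay 84 and 100 bp upstream and matched its core peak.

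Oxidative phosphorylation genes had 4 of 85 flanked and 11 at the core, with the highest flanking signal at ND-30 (116). Mitotic genes had 2 of 28 and 9, and replication genes 1 of 30 and 7. Germline genes had 2 of 21 flanked, and tej, which encodes a Tudor domain protein of the piRNA pathway, had 429 in the joint list, with 189 and 249 in replicates 1 and 2 at 455 bp upstream with a DRE at the summit. Muscle genes had 2 of 21, with Mef2 at 152, 48.9 and 96.1 and tin at 146, 82.9 and 71.4. Of 23 neural genes SoxN was flanked, with 88.8, 56.2 and 54.2, in neither thresholded list. Translation factor genes had 0 of 52 flanked and 10 at the core, and hemocyte and fat body genes 0 of 17 and 1. Neither kind of peak was found at 180 chemoreceptor, 111 histone and 121 cuticle protein genes. For the chemoreceptor genes this allows a flanking share of up to 2.03%.

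By chromosome arm, the X held 65 flanking peaks, 46 upstream and 19 downstream, and 318 core peaks. Flanking peaks made up 17.0% of both kinds on X (13.3 to 21.1), and from 22.8% on 2L to 26.0% on 3L on the other large arms. No flanking peak lay on arm 4, which had 6 core peaks.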

How the data were processed

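The authors deposited peak lists on dm6: per the file headers and labels, thresholded and ranked lists for each replicate and for both replicates together. The deposited signal (column 7) is the caller's value, and the deposited −log10 values are of the IDR in the ranked lists. For the aligner and the peak caller, names and versions were not given in the sources used here. Without read counts, depth is unknown.

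Starts came from the Ensembl annotation, release 115, and sequence from RefSeq dm6, on 7 arms. Each conservative peak was matched to the peak of each replicate's ranked list that overlapped it by at least 1 bp with the nearest summit. Motifs were searched by letters on both strands within 100 bp. Python 3.11.15, pandas 2.3.3, NumPy 2.4.6 and SciPy 1.17.1 were used, and the position and motif code was tested on simulated data. Intervals are exact (Clopper-Pearson) at 95%. Members, 26 gene lists and 14 motifs were chosen with earlier results of these data known. Named genes were the 10 strongest peaks of each side, up to 3 flanked members per list, up to 5 divergent peaks and 5 with a core peak, the peaks with printed sequence and those next to the limit. Peaks at noncoding starts, downstream peaks with a DRE at the start only and Cdk2 were named outside this rule, after their values were seen.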

Additional observations from a re-analysis of the deposited data

How the results depend on the processing

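No paired analysis was possible because both samples belong to 1 group. The number of flanking peaks, 472, became 721 in the other list from both replicates, 139 at an IDR of at most 0.001, 304 with the inner limit at 150 bp and 83 among peaks narrower than 410 bp. The upstream share (50.4%) ranged from 45.3 to 66.0% with a replicate left out. It was 74.1% at the stricter IDR, 56.8% with 1 peak per replicate pair, 41.1% with outermost starts only, 57.9% without neighbouring peaks (leaving out those with a core peak at their start and those sharing both replicate peaks with a stronger peak) and 88.0% among narrow peaks. The flanking over core signal ratio (0.666) ranged from 0.678 to 0.723 with a replicate left out. It was 0.836, 0.736, 0.620, 0.762 and 0.971 at the stricter IDR, with 1 peak per pair, with the 150 bp limit, without neighbouring peaks and among narrow peaks. The DRE share at flanking summits (11.0%) ranged from 7.88 to 14.2% with a replicate left out. It was 16.5% at the stricter IDR, 8.22% with the 150 bp limit, 21.7% among narrow peaks, and 6.57 and 19.9% with windows of 50 and 200 bp. The difference from core peaks (-21.6 percentage points) ranged from -22.4 to -21.1 with a replicate left out. It was -22.8 at the stricter IDR, -20.0 with 1 peak per pair, -22.8 with the 150 bp limit, -20.1 and -15.6 with the 2 windows, -18.9 without neighbouring peaks and -19.8 among narrow peaks. The share with a DRE at the start (19.9%) ranged from 14.3 to 21.9% with a replicate left out, and was 16.4% in the other list, 13.8% with the 50 bp window and 16.1% without neighbouring peaks. The share near a noncoding start (3.81%) was 9.35% at the stricter IDR, 1.77% with the outer limit at 300 bp, 13.3% among narrow peaks and 11.2% when other protein-coding starts within 200 bp were counted too. The divergent share (16.7%) ranged from 9.09 to 26.8% with a replicate left out. It was 12.8% in the other list, 28.1% at the stricter IDR, 12.1% with outermost starts, 9.87% with the 150 bp limit, 9.75% for starts at most 500 bp apart and 28.9% among narrow peaks. A core peak at the same start (25.4%) was found for 18.3% in the other list, 4.56% with 1 peak per pair, 33.6% with the 150 bp limit and 8.43% among narrow peaks. The upstream over downstream signal ratio (1.62) was 9.85 at the stricter IDR, where 20 of 36 downstream peaks shared their replicate peaks with a stronger one, and 1.08 among narrow peaks, of which 10 were downstream. The DRE difference of upstream minus downstream (19.3 percentage points) was 11.3 and 14.9 with the 2 windows and 24.7 among narrow peaks. These upstream and downstream comparisons, the set without neighbouring peaks and the narrow peaks were added after seeing the data. Summits changed sides of the start in replicate 1 but not replicate 2 for Prosalpha6 (-89 and 217 bp), N (47 and -96), Sf3a2 (-33 and 176) and SoxN (76 and -114), and in both replicates for Caf1-55 (-26 and -25), Cdk2 (-37 and -42), SmD3 (-84 and -100) and RpS12 (-27 and -17). The cause was not tested. The upstream share thus lay on either side of 50%, whereas no signal ratio or DRE difference changed direction under these alternatives. Depth limits cannot be given without read counts.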
